A study of Mus musculus with 9 samples.

Results

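CpG methylation of 10 Wnt ligand genes was measured by whole genome bisulfite sequencing (WGBS) in mouse embryonic stem cells (ESCs) that were wild type (WT) or lacked *Dnmt3a* or *Dnmt3b*. The genes were *Wnt1*, *Wnt3*, *Wnt3a*, *Wnt4*, *Wnt5a*, *Wnt6*, *Wnt7b*, *Wnt9b*, *Wnt10a* and *Wnt10b*. They were taken by name from the 19 Wnt ligand genes among the 22219 protein-coding genes of the annotation. The rule used no methylation value, but the genes were chosen with earlier results of these data known. For each gene, CpGs that 3 or more reads covered in each of the genotypes were collected in 4 regions, which were the 1 kb on both sides of the transcriptional start site (TSS), the gene body, and the 5 kb upstream and downstream of the body. The methylation level of a region is the share of methylated reads among all reads over its CpGs, in percent. All 10 genes were measured in all 4 regions, with 35 to 872 CpGs per region. The body and the upstream region each contain 1 kb of the TSS region, so that these levels are not independent of each other. By their longest protein-coding isoform, the mm9 gene bodies are *Wnt1* at chr15:98620288-98624268 on the plus strand, *Wnt3* at chr11:103635464-103679271 on the plus strand, *Wnt3a* at chr11:59061535-59104254 on the minus strand, *Wnt4* at chr4:136833404-136855641 on the plus strand, *Wnt5a* at chr14:29317936-29340633 on the plus strand. The other 5 are *Wnt6* at chr1:74818466-74831893 on the plus strand, *Wnt7b* at chr15:85365869-85412251 on the minus strand, *Wnt9b* at chr11:103588678-103611135 on the minus strand, *Wnt10a* at chr1:74838090-74850753 on the plus strand, and *Wnt10b* at chr15:98602184-98608581 on the minus strand.

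The cells were J1 ESCs, a mouse line labelled as strain 129S4/SvJae, with the genotypes wild type, Dnmt3a-/- and Dnmt3b-/-. The comparison asks how much of the methylation at these genes is kept when one of the 2 de novo methyltransferases is missing. Every genotype was grown on gelatin in medium with serum and LIF, and bisulfite-converted genomic DNA was sequenced in 3 libraries per genotype, 9 in all, which the labels call biological replicates. The 3 libraries were merged by the authors, which left a single table per genotype. Each value below is therefore 1 pooled value per genotype, without replicate error and without a test across replicates, and 1 WT table serves both comparisons. The 95% Wilson intervals of levels, and the intervals of differences formed from them, cover counting error only and leave out the spread between cultures. They are also too narrow for counting error, since a read that spans several CpGs is counted at each of them as if independent. Whether a KO line is a single clone is not given in the sources used here.

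Wnt proteins are secreted, lipid-modified signals that bind Frizzled receptors and LRP co-receptors. They act in the canonical pathway by stabilizing β-catenin, which joins TCF/LEF factors on target genes, or in non-canonical pathways that control cell polarity and movement. In ESCs canonical Wnt signalling supports self-renewal, and in the embryo it is needed for the primitive streak. DNMT3A and DNMT3B are the de novo DNA methyltransferases, and CpG-rich promoters of developmental genes are largely free of methylation in ESCs.

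In the part of the genome that the 3 tables share, mean depth was 31.6 to 35.0 reads per covered CpG. The WT table ends on chromosome 4 at position 140865857, behind *Wnt4*, so that the comparisons with all genes leave out the chromosomes it does not reach. In the *Dnmt3a* KO table no read covered a run of 12 CpGs that spans exons 18 and 19 of *Dnmt3a*, where the mean depth was 31.4 reads in WT and 16.8 reads in the *Dnmt3b* KO. In the *Dnmt3b* KO table no read covered 30 CpGs from exon 17 to exon 20 of *Dnmt3b*, where WT had 31.5 and *Dnmt3a* KO ESCs 26.4 reads. Marker genes did not separate by class in WT, since the TSS levels of 6 pluripotency genes ran from 0.0977% at *Sox2* to 92.7% at *Esrrb*, and those of 4 trophoblast and differentiation genes from 1.20% at *Gata6* to 94.5% at *Elf5*. In the *Dnmt3a* KO 3 of the 6 and 1 of the 4 were lower by more than 20 percentage points, with *Esrrb* at 34.6%, *Tcl1* at 8.22% from 78.6% in WT, *Prdm14* at 1.19% from 27.5% and *Elf5* at 56.0%. None, 0 of the 10, were in the *Dnmt3b* KO. Around the TSS 43.9% and 3.34% of all genes were lower by that much in the *Dnmt3a* and the *Dnmt3b* KO. Each marker TSS is that of the longest protein-coding isoform, and whether it is the start used in these ESCs was not examined. Whether cell state has a part in the values of the Wnt genes was not tested. Over the Wnt regions the depth was 9.47 to 28.1 reads per CpG in WT, 8.67 to 28.2 in the *Dnmt3a* KO and 11.6 to 29.99 in the *Dnmt3b* KO, and it was lowest around the TSSs.

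The sequences below, each 300 bp of the mm9 genome, show the kinds of site on which the comparison rests. They are written 5′ to 3′ on the strand of the gene, capitals mark CpGs, and none overlaps an annotated exon. The first pair lies directly before a TSS and contrasts a promoter without methylation with one that was partly methylated in WT. The other 3 were picked among 500-bp bins with at least 5 CpGs. They lie in those that lost most methylation in either KO or gained most in the *Dnmt3b* KO.
*Wnt4*, from -300 to -1 bp of the TSS, chr4:136833104-136833403, plus strand: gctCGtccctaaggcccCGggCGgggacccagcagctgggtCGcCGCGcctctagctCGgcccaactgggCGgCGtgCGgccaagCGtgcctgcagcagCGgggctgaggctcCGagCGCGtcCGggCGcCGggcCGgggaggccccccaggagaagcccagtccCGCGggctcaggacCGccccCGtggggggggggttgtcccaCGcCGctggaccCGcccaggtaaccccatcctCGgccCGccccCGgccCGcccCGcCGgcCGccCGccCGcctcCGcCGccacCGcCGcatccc
*Wnt1*, from -300 to -1 bp of the TSS, chr15:98619988-98620287, plus strand: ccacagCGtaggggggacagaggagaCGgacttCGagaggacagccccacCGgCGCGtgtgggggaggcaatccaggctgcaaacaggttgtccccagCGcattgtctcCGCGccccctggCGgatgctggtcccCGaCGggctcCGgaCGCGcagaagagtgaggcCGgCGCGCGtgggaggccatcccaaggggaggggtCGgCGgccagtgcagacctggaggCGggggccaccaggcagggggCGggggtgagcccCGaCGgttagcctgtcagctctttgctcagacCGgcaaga
*Wnt3a*, 7700 to 7999 bp behind the TSS, in an intron, chr11:59096255-59096554, minus strand: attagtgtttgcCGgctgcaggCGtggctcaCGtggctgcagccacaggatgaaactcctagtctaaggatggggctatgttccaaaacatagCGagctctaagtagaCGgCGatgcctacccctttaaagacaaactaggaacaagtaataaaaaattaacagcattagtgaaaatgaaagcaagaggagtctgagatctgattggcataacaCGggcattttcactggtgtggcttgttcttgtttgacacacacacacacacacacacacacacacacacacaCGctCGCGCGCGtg
*Wnt3a*, 2011 to 2310 bp behind the TSS, in an intron, chr11:59101944-59102243, minus strand: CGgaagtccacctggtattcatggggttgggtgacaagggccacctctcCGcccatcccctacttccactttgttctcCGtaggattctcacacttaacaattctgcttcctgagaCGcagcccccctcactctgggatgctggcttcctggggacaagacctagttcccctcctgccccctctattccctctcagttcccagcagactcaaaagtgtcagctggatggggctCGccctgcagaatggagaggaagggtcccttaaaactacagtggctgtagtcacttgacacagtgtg
*Wnt4*, from -4813 to -4514 bp of the TSS, chr4:136828591-136828890, plus strand: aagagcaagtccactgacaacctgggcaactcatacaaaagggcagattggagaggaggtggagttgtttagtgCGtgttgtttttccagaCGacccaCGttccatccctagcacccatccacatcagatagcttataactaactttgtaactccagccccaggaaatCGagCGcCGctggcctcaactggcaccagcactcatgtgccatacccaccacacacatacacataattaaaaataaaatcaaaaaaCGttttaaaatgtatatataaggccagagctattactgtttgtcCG

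The *Wnt4* promoter window holds 39 CpGs, of which 27 were covered in every genotype. In WT 26 of them had no methylated read, and in both KOs all 27 had none. The *Wnt1* window holds 26 CpGs, 25 of them covered, and had a level of 12.4% in WT, 3.03% in the *Dnmt3a* KO and 4.60% in the *Dnmt3b* KO. This was not an even low level in WT, since 14 CpGs were at 0 and 2 were at 50% or more, the highest at 90%, whereas no CpG of the window reached 50% in either KO. The intronic *Wnt3a* window at 7.7 kb was methylated at 92.2% in WT, 4.61% in the *Dnmt3a* KO and 81.3% in the *Dnmt3b* KO over 9 covered CpGs. Its CpGs ranged from 71.4 to 100% in WT and from 0 to 10% in the *Dnmt3a* KO, without overlap, and from 33.3 to 100% in the *Dnmt3b* KO. The *Wnt3a* window at 2.0 kb, with 5 CpGs, was lower in both KOs, with 48.3% in WT, 5.68% in the *Dnmt3a* KO and 20.5% in the *Dnmt3b* KO. The distal *Wnt4* window, with 8 CpGs, had 71.6% in WT, 52.4% in the *Dnmt3a* KO and 91.1% in the *Dnmt3b* KO, so that it was lower than WT in one KO and higher in the other. These last 3 windows were picked for their differences, which are therefore descriptions.

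Around the TSSs the Wnt genes ranged from almost no methylation to an intermediate level in WT, and every gene was lower in both KOs. The loss was large in absolute terms at *Wnt1* and *Wnt3* and small at the genes that had little methylation in WT. *Wnt1*, which patterns the midbrain and was found as a proto-oncogene of mammary tumours, had the highest level, 41.6% in WT (95% interval 39.2 to 44.1), 18.1% in the *Dnmt3a* KO (16.2 to 20.1) and 31.9% in the *Dnmt3b* KO (29.7 to 34.1). *Wnt3*, a canonical ligand required for gastrulation, had 28.3% in WT (26.5 to 30.03), 10.2% in the *Dnmt3a* KO (9.02 to 11.6) and 17.5% in the *Dnmt3b* KO (16.1 to 19.1). At both genes the order was WT, *Dnmt3b* KO, *Dnmt3a* KO.

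*Wnt5a*, the prototype of the non-canonical ligands, had 24.3% in WT, 14.8% in the *Dnmt3a* KO and 17.6% in the *Dnmt3b* KO. *Wnt9b*, which induces kidney tubules, had 23.1%, 12.8% and 15.3% in the same order. *Wnt10a*, a ligand of tooth and skin appendage development, had 16.2%, 3.01% and 11.6%. At *Wnt5a* and *Wnt9b* the KOs were closer to each other than to WT, and the interval of the difference between the KOs included 0, at -5.62 to 0.12 percentage points for *Wnt5a* and -4.95 to 0.02 for *Wnt9b*. At *Wnt10a* the *Dnmt3a* KO lay under the *Dnmt3b* KO, with a difference of -8.59 percentage points (-11.4 to -5.87).

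The other 5 genes were below 10% in WT. *Wnt10b*, which favours bone over fat formation, had 8.90% in WT, 5.03% in the *Dnmt3a* KO and 6.996% in the *Dnmt3b* KO. *Wnt7b*, needed in lung and placenta, had 7.998%, 1.42% and 2.07%, and *Wnt3a*, the canonical ligand of the tail bud and somites, had 7.26%, 2.57% and 2.69%. These last 2 genes were lower in both KOs to nearly the same level, with intervals of the difference between the KOs of -1.51 to 0.19 and -1.39 to 1.21 percentage points. *Wnt4*, needed for kidney tubules and the ovary, had 3.86%, 1.04% and 2.88%, and *Wnt6*, a ligand of the ectoderm, had 2.38%, 1.23% and 1.46%. *Wnt6* had the lowest level in WT, and at *Wnt4*, *Wnt6* and *Wnt10b* the interval of *Dnmt3b* KO minus WT included 0.

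Against WT, the TSS regions differed by -23.5 percentage points at *Wnt1* to -1.15 at *Wnt6* in the *Dnmt3a* KO, and by -10.7 at *Wnt3* to -0.92 at *Wnt6* in the *Dnmt3b* KO. A loss of more than 20 percentage points was taken as the call for regions. The size is that of the credible difference that the study used for single CpGs. Here it is applied to the pooled difference and not to its interval, which is a looser rule. In the *Dnmt3a* KO 1 of 10 genes, *Wnt1*, passed it, where 43.9% of all 13986 genes measured around the TSS did. This count was 0 with 500 bp on both sides of the TSS, 2 with 2 kb or with a minimum of 10 reads, and 4 and 0 with calls at 10 and 30 percentage points. No share of all genes is given for these settings. With a call at a loss of more than 50% of the WT level the count was 6, where 66.1% of all genes had such a loss. None, 0 of 10, passed in the *Dnmt3b* KO, with 3.34% of all genes. The median difference of the Wnt genes was -8.03 in the *Dnmt3a* KO and -5.28 in the *Dnmt3b* KO, beside -15.4 and -4.68 over all genes, whose median WT level was 22.4% against 12.6% for the Wnt genes. Relative to WT, the median Wnt gene kept 39.8% of its TSS methylation in the *Dnmt3a* KO and 68.8% in the *Dnmt3b* KO, and the 5 Wnt genes with at least 10% in WT kept medians of 43.4% and 71.5%, beside 44.9% and 84.4% over all 9444 genes with at least 10% in WT.

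**Figure D1:**
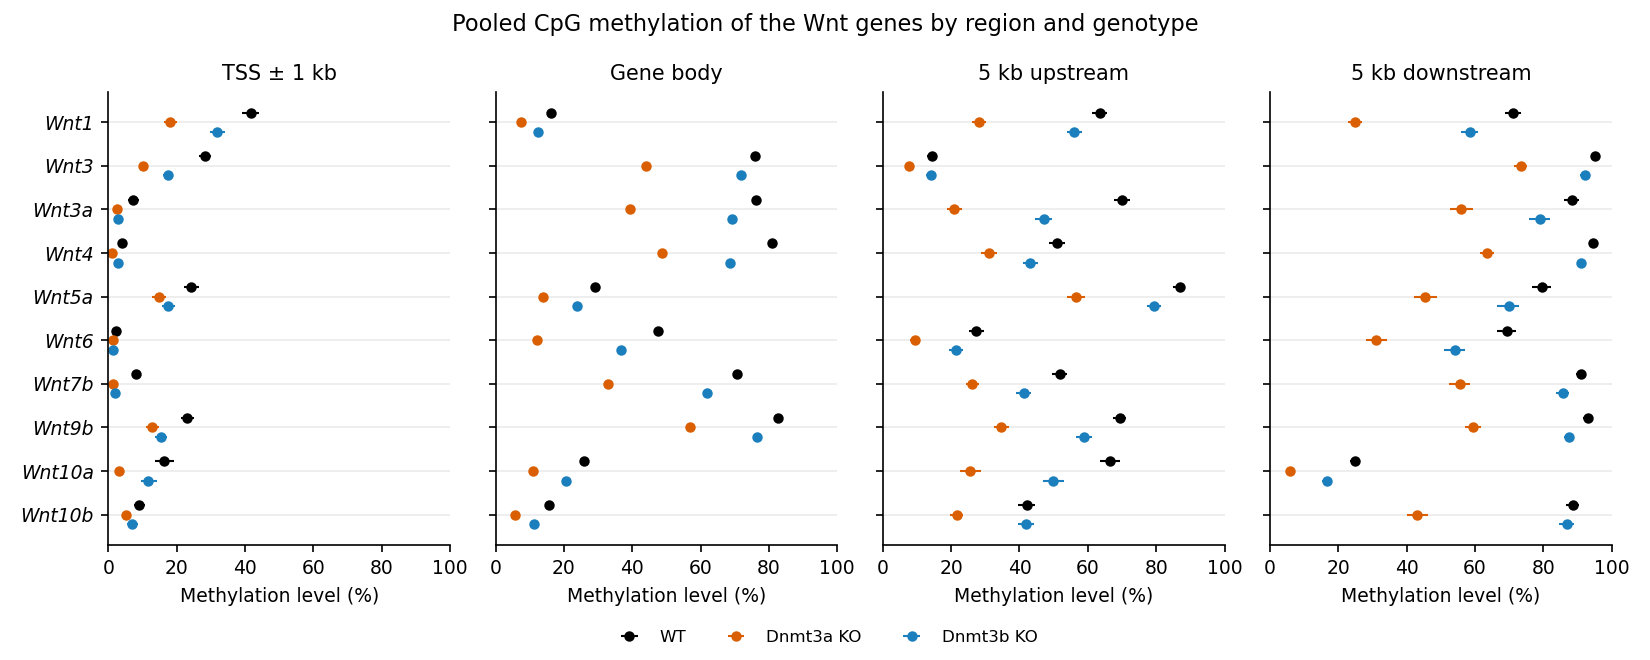
Methylation level in percent (x axis) of the 10 Wnt genes (rows) in the TSS, body, upstream and downstream regions (panels); points are the pooled levels of WT (black), *Dnmt3a* KO (orange) and *Dnmt3b* KO ESCs (blue), with 95% Wilson intervals of the reads. The order WT, *Dnmt3b* KO, *Dnmt3a* KO from high to low holds for all 40 sets of points, and the median gap between the KOs is smallest around the TSSs, at -2.23 percentage points.

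In the upstream 5 kb the WT levels of the Wnt genes ran from 14.3% at *Wnt3* to 86.8% at *Wnt5a*, and loss of *Dnmt3a* lowered them much more than loss of *Dnmt3b*. *Wnt3a* changed most in both KOs, from 70.1% in WT (67.5 to 72.5) to 20.9% in the *Dnmt3a* KO (18.9 to 23.2) and 47.1% in the *Dnmt3b* KO (44.6 to 49.5). The differences were -49.1 (-52.3 to -45.8) and -23.0 (-26.5 to -19.5) percentage points, at percentiles 3.73 and 1.12 of all genes, where a low percentile means a large loss. *Wnt10a* followed with 66.6% in WT, 25.5% in the *Dnmt3a* KO and 49.9% in the *Dnmt3b* KO, differences of -41.1 and -16.7. For both genes the loss in the *Dnmt3b* KO was among the larger ones in the genome, since *Wnt10a* lay at percentile 7.18.

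*Wnt1* upstream had 63.5% in WT, 28.1% in the *Dnmt3a* KO and 56.0% in the *Dnmt3b* KO. *Wnt9b* had 69.3%, 34.6% and 58.8%, and *Wnt5a*, the most methylated upstream region, had 86.8%, 56.5% and 79.4%. In these genes the difference was -35.3 to -30.3 percentage points without *Dnmt3a* and -10.5 to -7.42 without *Dnmt3b*. *Wnt7b* had 51.8%, 26.1% and 41.2%, *Wnt4* had 50.9%, 31.0% and 43.2%, and *Wnt10b* had 42.1%, 21.6% and 41.9%. *Wnt10b* thus kept 99.5% of its upstream methylation without *Dnmt3b* and 51.3% without *Dnmt3a*. All of the *Wnt7b* upstream region lies within the noncoding gene *AU022754*, at chr15:85411572-85424138 on the opposite strand, which starts inside the *Wnt7b* body. The lowest upstream levels were those of *Wnt6*, with 27.3%, 9.32% and 21.3%, and *Wnt3*, with 14.3%, 7.53% and 14.0%. For *Wnt3* and *Wnt10b* the interval of *Dnmt3b* KO minus WT included 0, at -2.21 to 1.62 and -3.65 to 3.24 percentage points.

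A loss of more than 20 percentage points was found upstream of 7 of 10 Wnt genes in the *Dnmt3a* KO, where 84.6% of 14170 genes had one, and *Wnt3*, *Wnt6* and *Wnt4* did not reach it. The 7 were 4 when the farthest other annotated TSS of each gene was used, a setting for which no share of all genes is given. *Wnt4* lay just outside the call at -19.96 percentage points and *Wnt10b* just inside it at -20.5. *Wnt3a* was the 1 of 10 genes that passed in the *Dnmt3b* KO, with 3.04% of all genes. This call was lost when the ratios of single CpGs were averaged and when the 1 kb at the TSS was left out. The median differences were -28.0 and -7.57 for the Wnt genes, beside -31.6 and -7.82 for all genes.

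Among the gene bodies the Wnt genes differed widely in WT. 5 of them had bodies of 70.6 to 82.6%, and 5 had bodies of 15.6 to 47.6%, where the median over all genes was 83.4%. The highly methylated bodies were those of *Wnt9b*, *Wnt4*, *Wnt3a*, *Wnt3* and *Wnt7b*, which are 22.2 to 46.4 kb long, although *Wnt5a*, of 22.7 kb, was among the less methylated ones. *Wnt9b* had 82.6% in WT, 56.8% in the *Dnmt3a* KO and 76.4% in the *Dnmt3b* KO, and *Wnt4* had 81.0%, 48.7% and 68.6%. *Wnt3a* had 76.1%, 39.4% and 69.3%, *Wnt3* had 76.0%, 44.0% and 71.8%, and *Wnt7b* had 70.6%, 33.0% and 61.9%. *Wnt4* therefore had the largest body loss without *Dnmt3b* of the 10 genes, -12.4 percentage points (-13.8 to -11.0), and *Wnt7b* had the largest without *Dnmt3a*, -37.6 (-38.6 to -36.6).

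The less methylated bodies were those of *Wnt6*, with 47.6% in WT, 12.2% in the *Dnmt3a* KO and 36.6% in the *Dnmt3b* KO, and of *Wnt5a*, with 29.2%, 13.8% and 23.7%. *Wnt10a* had 25.9%, 10.9% and 20.5%, *Wnt1* had 16.1%, 7.39% and 12.3%, and *Wnt10b* had 15.6%, 5.78% and 11.4%. The body levels of *Wnt1*, *Wnt10b*, *Wnt10a* and *Wnt5a* in WT lay at percentiles 2.95 to 5.05 of all genes. *Wnt1* and *Wnt10b* are the shortest of the 10 genes, with 3.98 and 6.40 kb, and their bodies have 5.07 and 3.25 CpGs per 100 bp, against 1.55 to 2.29 in the other 8. *Wnt6* kept 25.6% of its body level without *Dnmt3a*, the smallest share among the 10 bodies, although its loss of -35.4 percentage points lay at percentile 32.4 of all genes.

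A loss of more than 20 percentage points was found in 6 of 10 bodies in the *Dnmt3a* KO, where 91.6% of 13815 genes had one, and in 0 of 10 in the *Dnmt3b* KO, with 2.18% of all genes. The 4 bodies that did not reach the call, of *Wnt1*, *Wnt10b*, *Wnt10a* and *Wnt5a*, had under 30% methylation in WT. They kept 37.1 to 47.3% of their WT level in the *Dnmt3a* KO. Of the 6 that reached it, *Wnt6* and *Wnt7b* kept 25.6 and 46.7%, and *Wnt3a*, *Wnt3*, *Wnt4* and *Wnt9b* kept 51.7 to 68.8%. The median differences were -28.9 and -5.84 percentage points, beside -32.7 and -7.43 for all genes. Relative to WT, the median Wnt body kept 47.0% of its level in the *Dnmt3a* KO and 82.9% in the *Dnmt3b* KO. The medians over all 13523 genes with at least 10% in WT were higher, at 58.6% and 90.7%.

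Downstream of the genes methylation was high, except behind *Wnt10a*, and loss of *Dnmt3a* lowered it at every gene. *Wnt1* and *Wnt10b* had the largest losses, from 71.2% in WT to 24.7% in the *Dnmt3a* KO and 58.4% in the *Dnmt3b* KO at *Wnt1*, and from 88.7% to 43.1% and 86.9% at *Wnt10b*. The difference in the *Dnmt3a* KO was -46.5 percentage points at *Wnt1* and -45.6 at *Wnt10b*, at percentiles 9.31 and 10.8 of all genes. *Wnt10b* also showed the widest gap between the KOs of all 40 regions, -43.8 (-47.5 to -39.9), since the interval of *Dnmt3b* KO minus WT, -4.63 to 1.07, included 0. *Wnt6* had 69.3%, 31.1% and 54.1%, and its *Dnmt3b* KO loss of -15.2 was the largest downstream one. *Wnt3a* had 88.4%, 56.0% and 78.9%, and *Wnt5a* had 79.5%, 45.5% and 69.8%.

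The highest downstream levels were those of *Wnt3*, with 95.04% in WT, 73.4% in the *Dnmt3a* KO and 92.1% in the *Dnmt3b* KO, *Wnt4*, with 94.5%, 63.4% and 91.0%, *Wnt9b*, with 93.1%, 59.3% and 87.5%, and *Wnt7b*, with 91.1%, 55.5% and 85.7%. *Wnt3* kept 77.2% of its level without *Dnmt3a*, the largest share among the downstream regions. Its downstream region holds part of *Nsf*, and that of *Wnt9b* holds the noncoding genes *C130046K22Rik* and *Gm11642*. *Wnt10a* stood apart with 24.8% in WT (23.3 to 26.4), 5.72% in the *Dnmt3a* KO (4.91 to 6.65) and 16.5% in the *Dnmt3b* KO (15.2 to 18.0), and its WT level lay at percentile 2.37 of all genes. A loss of more than 20 percentage points was found at 9 of 10 genes in the *Dnmt3a* KO, all but *Wnt10a* at -19.1, where 92.9% of 14161 genes had one. With a call at a loss of more than 50% of the WT level the count was 4, beside 24.9% of all genes. These were *Wnt1*, *Wnt6*, *Wnt10b* and also *Wnt10a*, which kept the smallest share of its WT level, 23.0%. In the *Dnmt3b* KO a loss of more than 20 percentage points was found at 0 of 10 genes, with 2.19% of all genes. The median differences were -34.0 and -6.94 percentage points, beside -34.4 and -7.19.

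Across the 4 regions, all 40 levels were lower in the *Dnmt3a* KO than in WT ESCs, and 40 of 40 were lower in the *Dnmt3b* KO. Under other settings 9 values of these differences were above 0, by at most 1.53 percentage points, among them those around the TSSs of *Wnt4* and *Wnt6* in the *Dnmt3a* KO with 500 bp on both sides. The interval of the difference lay under 0 in 40 of 40 regions in the *Dnmt3a* KO, as it did for 95.5% of all genes around the TSS, 99.3% in the body, 99.9% upstream and 100.0% downstream. Without *Dnmt3b* it did in 7 of 10 TSS regions, 10 bodies, 8 upstream and 9 downstream regions, beside 74.1%, 91.9%, 82.8% and 87.6% of all genes. Such a direction was common in the genome, as 98.8% of all genes were lower in the *Dnmt3a* KO around the TSS, 99.8% in the body and 100% in each flank, and 92.9%, 97.5%, 94.6% and 97.8% were lower in the *Dnmt3b* KO around the TSS, in the body, upstream and downstream. *Dnmt3a* KO levels were under *Dnmt3b* KO levels in 40 of 40 regions, as they were for 94.6% of all genes around the TSS, 99.2% in the body, 99.7% upstream and 99.9% downstream. The median gap between the KOs was -2.23 percentage points around the TSSs, -19.7 in the bodies, -21.6 upstream and -26.0 downstream.

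**Figure D2:**
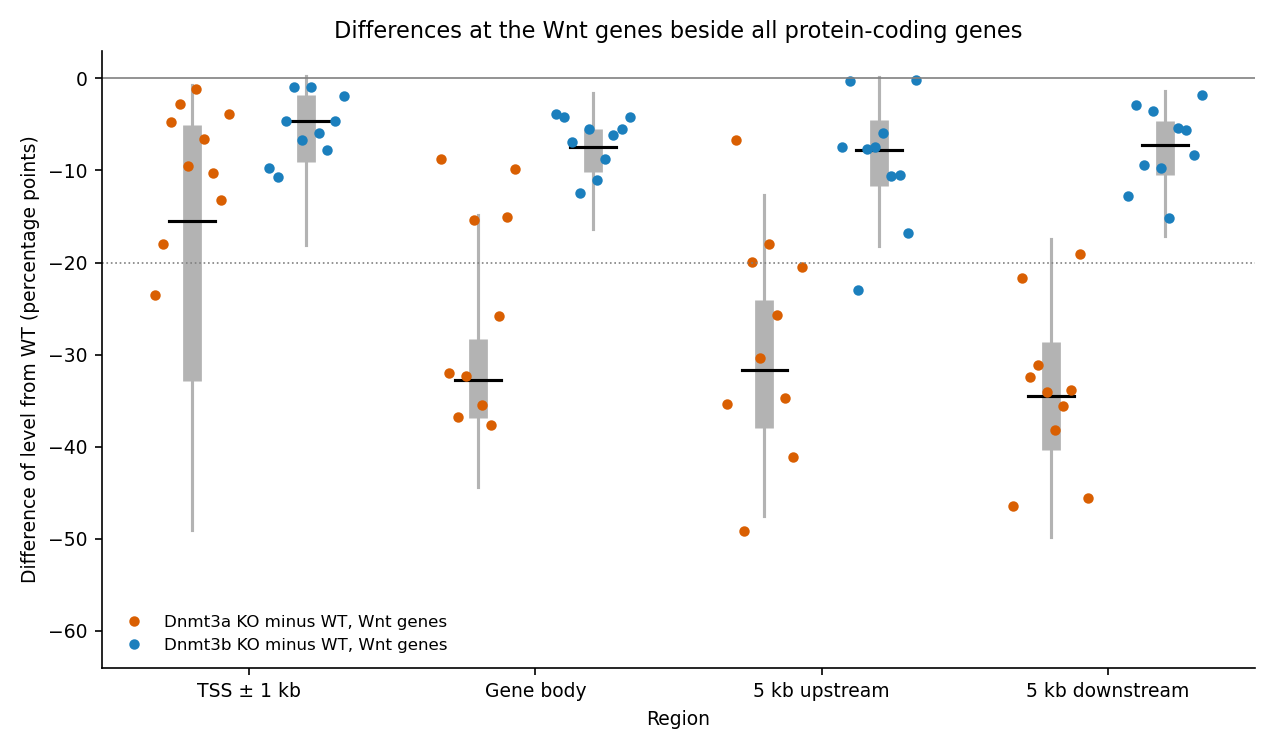
Difference of the level from WT in percentage points (y axis) for the TSS, body, upstream and downstream regions (x axis). Points are the 10 Wnt genes in the *Dnmt3a* KO (orange) and *Dnmt3b* KO ESCs (blue), grey bars span the 25th to 75th and thin lines the 5th to 95th percentile of all protein-coding genes, black ticks are their medians, and the dotted line is the call at -20 percentage points. Around the TSS no Wnt gene in the *Dnmt3a* KO reaches the 25th percentile of all genes at -32.8, and the 4 bodies with differences of -15.4 to -8.75 in the *Dnmt3a* KO lie near or above its 95th percentile, where losses were small.

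The low stretch of a gene is the run of covered CpGs nearest the TSS, within 500 bp of it, in which the share of methylated reads over 5 consecutive CpGs stayed under 10%. All 10 Wnt genes had such a stretch in WT, where 8761 of the 14183 genes examined had one. With a minimum of 10 reads 1 of the 10 had none. 4 genes had long ones, *Wnt6* of 2514 bp in WT, 2905 bp in the *Dnmt3a* KO and 2312 bp in the *Dnmt3b* KO, *Wnt5a* of 2212, 2459 and 2146 bp, *Wnt7b* of 1884, 1682 and 2110 bp, and *Wnt4* of 1602, 1754 and 1452 bp. At these genes the length in either KO was 0.893 to 1.16 times that in WT, and the *Wnt5a* stretch began at -67 bp of the TSS in both WT and *Dnmt3a* KO ESCs. *Wnt3* had 1143, 1252 and 1028 bp, *Wnt10b* had 848, 725 and 663 bp, and *Wnt9b* had 680, 819 and 807 bp.

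The remaining 3 genes had stretches at least 1.5 times as long as in WT in both KOs. *Wnt3a* had 804 bp in WT, 2313 bp in the *Dnmt3a* KO and 2343 bp in the *Dnmt3b* KO. It differed mainly at its 3′ end, which lay 435 bp behind the TSS in WT and 1815 and 1895 bp behind it in the KOs, where WT already had 2 further low runs of 159 and 719 bp, so that the gaps between low runs closed in both KOs. *Wnt1* had 39 bp with 4 CpGs in WT, 475 bp with 33 CpGs in the *Dnmt3a* KO and 153 bp with 16 CpGs in the *Dnmt3b* KO, and all 3 lay on the promoter side, reaching at most 15 bp behind the TSS. *Wnt10a* had 2 bp, a single CpG, in WT, 1521 bp in the *Dnmt3a* KO and 59 bp in the *Dnmt3b* KO. The WT value of *Wnt10a* rests on how the run is chosen, since a run of 221 bp began 48 bp behind the TSS. So does its *Dnmt3b* KO value, since the 59 bp hold 2 CpGs and a run of 494 bp with 28 CpGs began 233 bp behind the TSS. At *Wnt1* the WT stretch lay between WT runs from -179 to -127 bp and from 69 to 136 bp. The *Dnmt3b* KO stretch of *Wnt1*, from -191 to -39 bp, spans the first of these runs. In the *Dnmt3b* KO the direction turned for *Wnt3a*, to -75 bp against WT with a limit of 5%, and for *Wnt10a*, to -190 bp with a window of 3 CpGs, -185 bp with a limit of 5% and -101 bp with averaged ratios of single CpGs. With a minimum of 10 reads 1 gene had a stretch at least 1.5 times as long as in WT in the *Dnmt3b* KO.

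In the *Dnmt3a* KO 8 of 10 stretches were longer than in WT, where 95% of 8761 genes with a stretch in WT had a longer one, and in the *Dnmt3b* KO 5 of 10 were, with 86.5% of all genes. At least 1.5 times the WT length was reached by 3 Wnt genes in each KO, beside 60.3% and 24.3% of all genes. In the *Dnmt3a* KO this count was 6 with a window of 11 CpGs or a limit of 5% or 20%, and in the *Dnmt3b* KO it was 1 with a minimum of 10 reads. The shares of all genes hold for the main rule only, and none is given for these settings. Stretches shorter than in WT in the *Dnmt3a* KO were those of *Wnt7b* and *Wnt10b*. With a window of 11 CpGs, a limit of 20% or averaged ratios of single CpGs, 10 of 10 were longer. With every single CpG under 10% only 5 were. At *Wnt7b* the stretch of 1682 bp was followed upstream, behind a gap from -271 to -122 bp, by another low run of 1802 bp, from -2072 to -271 bp, whereas low methylation in WT reached no further upstream than -481 bp. The median length was 995.5 bp in WT, 1601.5 bp in the *Dnmt3a* KO and 1240 bp in the *Dnmt3b* KO, and the median difference from WT was 199.5 and -4.5 bp, beside 598 and 195 bp over all genes. The order of these medians depended on the setting. With a minimum of 10 reads they were 1380.5, 1372.5 and 1206 bp. In that setting 1 gene had no stretch in WT, and 8 and 7 genes had a longer stretch in the *Dnmt3a* and the *Dnmt3b* KO. The *Dnmt3b* KO median was also under that of WT with a window of 3 CpGs, at 635 against 746 bp, with a limit of 5%, at 642.5 against 660 bp, and with every single CpG under 10%, at 459 against 545 bp.

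Levels in the 2 kb outside the WT stretch are given as a description, since these edges were set by WT values. On the 5′ side *Wnt3a* had 77.1% in WT, 24.0% in the *Dnmt3a* KO and 57.3% in the *Dnmt3b* KO, and *Wnt4* had 72.4%, 33.8% and 51.3%. The 5′ sides of *Wnt3* and *Wnt10b* had higher values in the *Dnmt3b* KO, with 14.8% in WT against 17.0% at *Wnt3* and 41.8% against 45.2% at *Wnt10b*. These rest on 962 and 1101 reads at *Wnt3* and 933 and 878 at *Wnt10b*. No interval of these differences was formed, so that a gain cannot be told from counting error. On the 3′ side *Wnt6* had 82.8%, 28.3% and 69.0%.

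**Figure D3:**
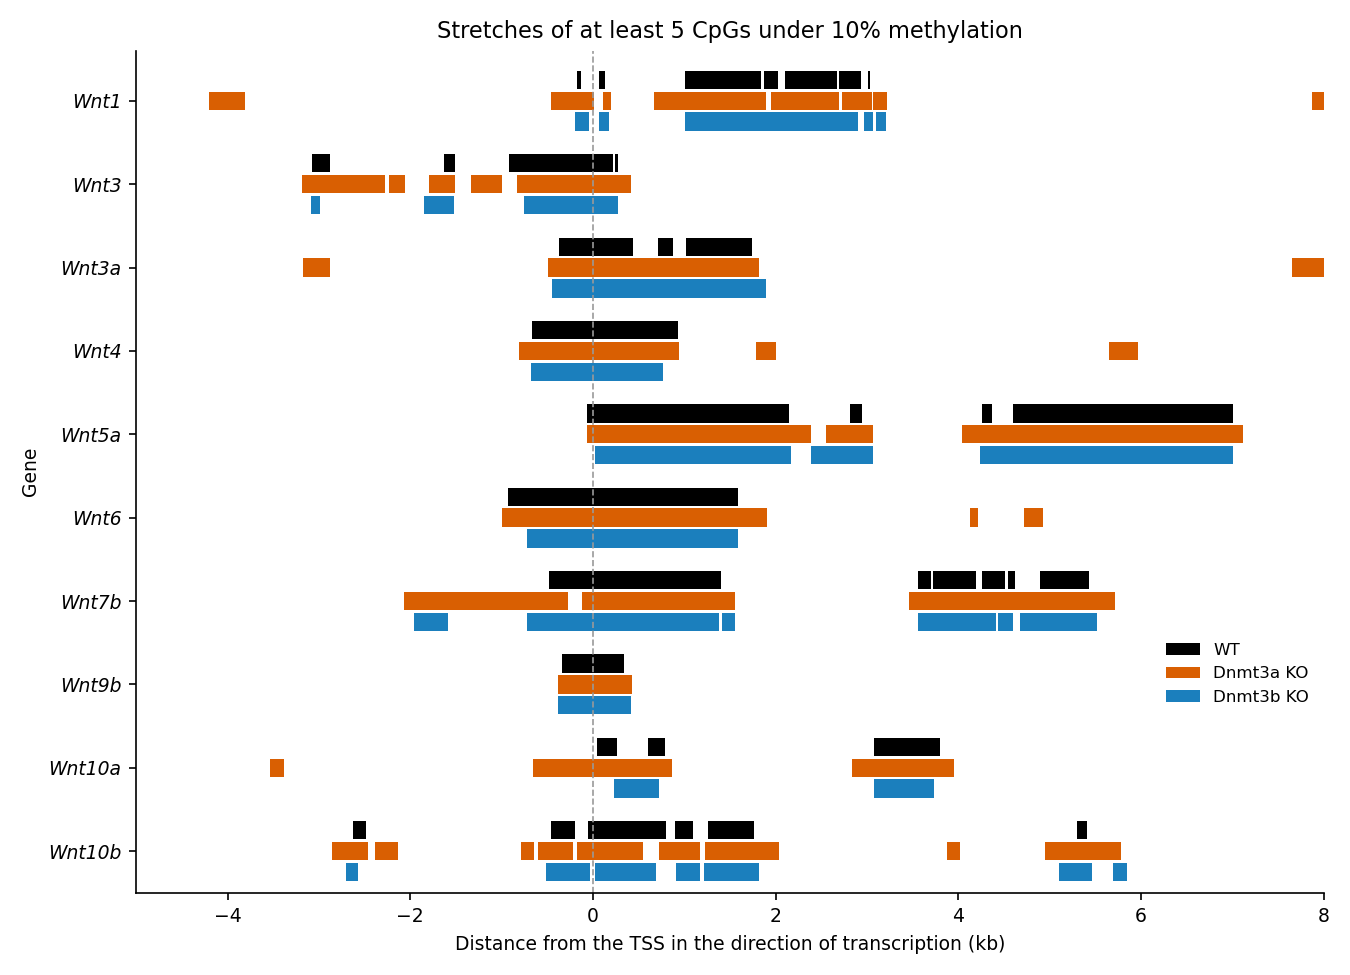
Runs of at least 5 CpGs in which methylation stayed under 10% (bars), drawn by distance from the TSS in kb in the direction of transcription (x axis) for each of the 10 Wnt genes (rows) in WT (black), *Dnmt3a* KO (orange) and *Dnmt3b* KO ESCs (blue). The *Wnt3a* bar at the TSS is unbroken in both KOs and broken in WT, and additional bars appear away from the TSS mainly in the *Dnmt3a* KO.

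Low runs also lay inside and behind the genes. Over the bodies and flanks, 336776 bp in all, runs of at least 5 CpGs under 10% made up 26.1 kb in 46 runs in WT, 49.6 kb in 60 runs in the *Dnmt3a* KO and 30.9 kb in 47 runs in the *Dnmt3b* KO. No value over all genes stands beside these totals, so that they cannot be called particular to the Wnt genes. 1 run of 148 bp in the *Dnmt3a* KO lies between *Wnt6* and *Wnt10a*, whose bodies are 6.20 kb apart, and is counted for both. *Wnt10a* had the largest low share, 17.0% of its window in WT, 37.3% in the *Dnmt3a* KO and 19.3% in the *Dnmt3b* KO. Its downstream region held runs of 1043 and 579 bp in WT and of 1216 and 785 bp in the *Dnmt3b* KO, and 1 run of 3935 bp in the *Dnmt3a* KO, which reached from 13.4 to 17.3 kb behind the TSS and was the longest run at any of the 10 genes in any genotype.

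*Wnt5a* had an internal run of 2408 bp in WT, 4.60 to 7.003 kb behind the TSS, which was 3080 bp long in the *Dnmt3a* KO and 2770 bp in the *Dnmt3b* KO. The run overlaps the noncoding antisense gene *Gm2670* and includes another annotated *Wnt5a* start, 6655 bp behind the one used. *Wnt7b*, with another annotated start at 3751 bp, had 5 runs between 3.56 and 5.43 kb in WT and a single run of 2255 bp, from 3.46 to 5.72 kb, in the *Dnmt3a* KO. *Wnt3* had runs of 241, 122 and 732 bp about 35 kb into the gene in WT, and 1 run of 2100 bp there in the *Dnmt3a* KO. In the *Dnmt3b* KO *Wnt7b* had runs of 848, 168 and 844 bp between 3.56 and 5.52 kb, beside 144, 468, 259, 72 and 538 bp in WT. *Wnt3* had runs of 512 and 765 bp about 35 kb into the gene in the *Dnmt3b* KO. In these 3 genes the same CpG-dense places were low in all genotypes. Their low part was wider than in WT in both KOs, and widest in the *Dnmt3a* KO.

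*Wnt6* had a run over exon 4 of 832 bp in WT, 1243 bp in the *Dnmt3a* KO and 886 bp in the *Dnmt3b* KO. In *Wnt3a* a run of 1107 bp at 7.66 to 8.76 kb, with 21 CpGs, was found in the *Dnmt3a* KO, where WT and *Dnmt3b* KO ESCs had none. The *Wnt3a* window at 7.7 kb printed above lies in it. *Wnt4* and *Wnt9b* had 1 run each in WT, the one at the TSS, and 4 and 2 runs in the *Dnmt3a* KO.

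To follow the position of the differences, levels were computed in bins of 500 bp from 5 kb before to 8 kb behind each TSS. In 183 bins with at least 5 CpGs, *Dnmt3a* KO ESCs were under WT in 171, beside 96.1% of the bins of all genes, and above it in 10, beside 2.98%. *Dnmt3b* KO ESCs were under WT in 152, beside 83.7%, and above it in 30, beside 15.5%. A loss of more than 20 percentage points was found in 110 bins in the *Dnmt3a* KO, where 74.6% of the bins of all genes had one, and in 16 bins in the *Dnmt3b* KO, with 11.4%. The median difference was -25.1 percentage points, with a range of -86.4 to 1.39, in the *Dnmt3a* KO, and -4.94, with a range of -35.8 to 11.6, in the *Dnmt3b* KO.

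Among the bins with at least 5 CpGs, the largest loss in the *Dnmt3a* KO was in *Wnt3a* from 7.5 to 8 kb. The levels there were 93.1% in WT, 6.70% in the *Dnmt3a* KO and 76.5% in the *Dnmt3b* KO. The largest loss in the *Dnmt3b* KO among these bins was also in *Wnt3a*, from 2 to 2.5 kb, with 64.4%, 27.8% and 28.6%. This bin lies just behind the stretch that was longer in both KOs. With the same limit of 5 CpGs, 2 bins lay furthest above WT in the *Dnmt3b* KO. They were that of *Wnt4* from -5 to -4.5 kb, with 80.2% in WT and 91.9%, and that of *Wnt3* from -2.5 to -2 kb, with 16.5% and 26.9%. *Dnmt3a* KO ESCs had 57.1% and 8.45% there.

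Losses in the *Dnmt3a* KO were larger where the WT level of the bin was higher. Since the bins were grouped by the WT level that enters the difference, this is in part built in. The 74 bins with at least 80% in WT had a median difference of -39.2 percentage points in the *Dnmt3a* KO and -6.57 in the *Dnmt3b* KO. The 60 bins from 10 to under 80% had median differences of -26.9 and -9.86. The 49 bins under 10% had median differences of -1.77 and -1.34, where a large loss was not possible.

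The WT level was in turn lower where CpGs were dense. The 51 bins with at least 20 CpGs had a median level of 4.19% in WT, 1.51% in the *Dnmt3a* KO and 1.94% in the *Dnmt3b* KO. The 40 bins with 10 to 19 CpGs had 32.9%, 11.9% and 23.9%, and the 92 bins with 5 to 9 CpGs had 89.7%, 40.7% and 82.4%. Bins of 1 gene are neighbours on 1 chromosome and are not replicates.

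**Figure D4:**
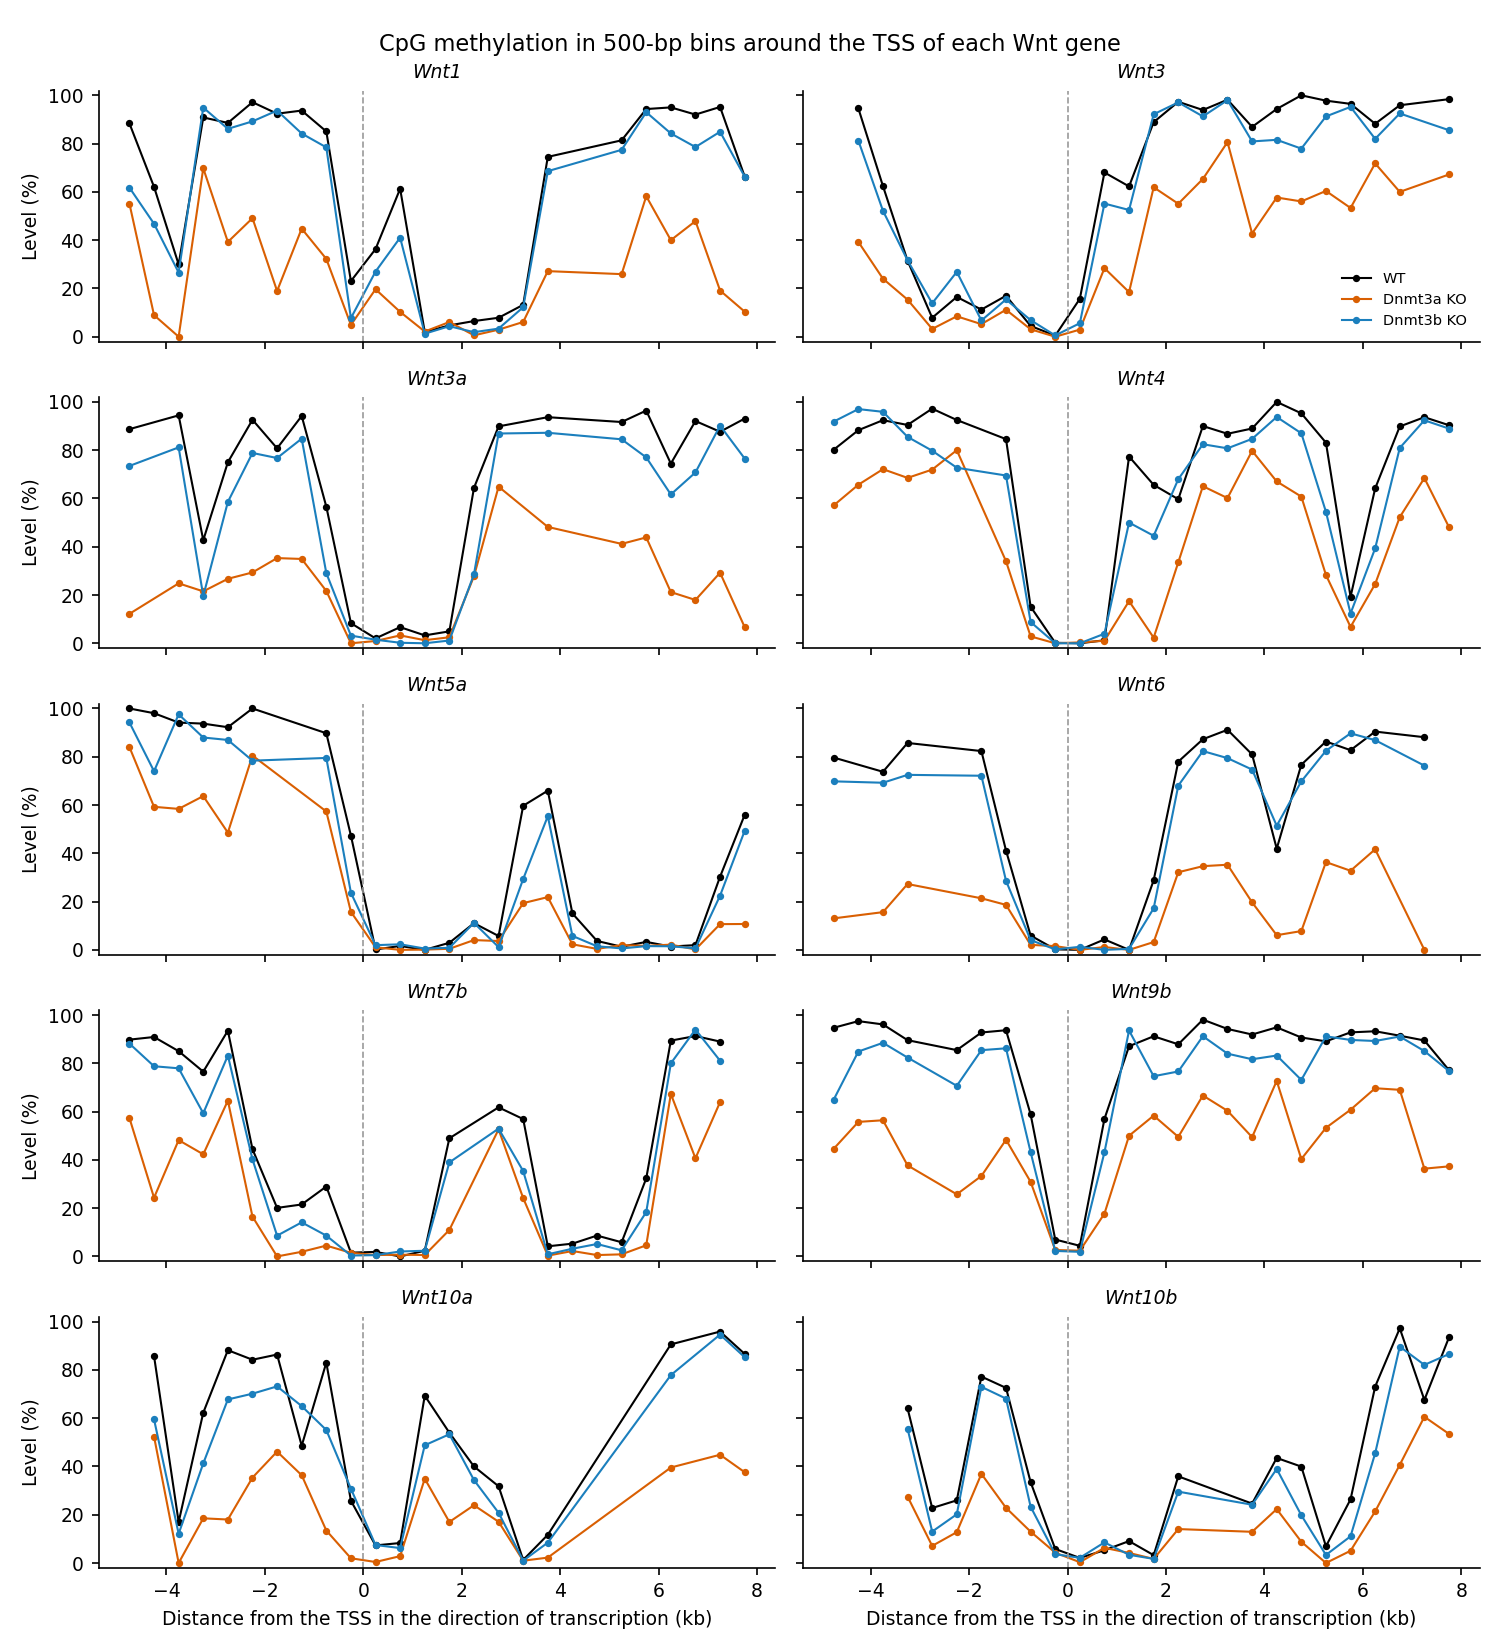
Methylation level in percent (y axis) in 500-bp bins with at least 3 CpGs, by distance of the bin's centre from the TSS in kb in the direction of transcription (x axis), for each of the 10 Wnt genes (panels) in WT (black), *Dnmt3a* KO (orange) and *Dnmt3b* KO ESCs (blue). In most panels the 3 lines meet near 0 at the TSS and part on both sides, where *Dnmt3a* KO lies well under the other lines, whereas *Wnt1* keeps methylation at the TSS and is low from 1 to 3 kb.

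The loss was also followed at single CpGs. The 10 genes held 6010 CpGs that passed the read minimum in each genotype. In WT 46.8% of them were at 80% or more, 17.6% from 20 to under 80%, and 35.6% under 20%. The 2811 CpGs of the upper class had a WT median of 97.2%, and medians of 54.5% in the *Dnmt3a* KO and 90.9% in the *Dnmt3b* KO, and 16.5% and 74.8% of them stayed in that class. The 1059 CpGs of the middle class had medians of 56.7%, 11.1% and 40.0%, and 61.2% of them were under 20% in the *Dnmt3a* KO and 31.2% in the *Dnmt3b* KO. Of the 2140 CpGs under 20% in WT, 97.5% stayed under 20% in the *Dnmt3a* KO and 93.8% in the *Dnmt3b* KO. Since the classes were set by WT values, some movement out of a class comes with counting error. No share over all genes stands beside these class values, so that they cannot be called particular to the Wnt genes.

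A CpG was counted as hypomethylated when the 95% credible interval of its difference from WT lay beyond 0.2, given as a fraction. Around the TSSs 46 of 1008 CpGs were hypomethylated in the *Dnmt3a* KO, or 4.56%, where 8.93% of the CpGs around all TSSs were. 27 of them were in *Wnt1* and *Wnt3*, with 15 and 12, and *Wnt3a* and *Wnt6* had 0. In the *Dnmt3b* KO 14 of 1027 were hypomethylated, or 1.36%, with 1.46% over all genes. In the bodies 1037 of 4551 CpGs, or 22.8%, were hypomethylated in the *Dnmt3a* KO and 94 of 4561, or 2.06%, in the *Dnmt3b* KO, beside 26.8% and 2.18% over all genes. *Wnt7b*, *Wnt3* and *Wnt3a* held 255, 224 and 223 of the 1037.

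Upstream 166 of 896 CpGs, or 18.5%, were hypomethylated in the *Dnmt3a* KO and 16 of 924, or 1.73%, in the *Dnmt3b* KO, beside 23.4% and 2.56% over all genes. Downstream the counts were 167 of 652, or 25.6%, and 15 of 651, or 2.30%, beside 27.5% and 2.85%. The highest shares of single genes in the *Dnmt3a* KO were those downstream of *Wnt10b*, 47.6%, and of *Wnt1*, 40.2%, and upstream of *Wnt9b*, 37.7%, and *Wnt10a*, 36.6%. By this rule no CpG of the Wnt genes was hypermethylated in the *Dnmt3a* KO. Over all genes, 0.0113% of the CpGs were hypermethylated around the TSSs, 0.00684% in bodies, 0.00751% upstream and 0.00544% downstream. Without *Dnmt3b* 3 CpGs were hypermethylated in bodies, 1 each in *Wnt3a*, *Wnt6* and *Wnt10b*, and 2 upstream of *Wnt3*, beside 0.0649% and 0.0705% of the CpGs of all genes. Around the TSSs and downstream 0 were, beside 0.0425% and 0.0723%. With a 99% credible interval 0 were left in bodies and 1 upstream, beside 0.0147% and 0.0171%.

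The counts of single CpGs depended on the rule. By Fisher's exact test, Benjamini-Hochberg adjusted, with a difference over 20 percentage points, 90 CpGs around the TSSs, 1749 in bodies, 292 upstream and 309 downstream were hypomethylated in the *Dnmt3a* KO, where 15.4%, 49.9%, 39.5% and 48.9% of the CpGs of all genes were. The counts in the *Dnmt3b* KO were 20, 148, 27 and 26, beside 2.23%, 3.96%, 4.18% and 4.80%. Hypermethylated CpGs by this test were 1, 7, 1 and 0 in the *Dnmt3a* KO, beside 0.101%, 0.0734%, 0.0824% and 0.0743%, and 2, 8, 2 and 0 in the *Dnmt3b* KO, beside 0.0837%, 0.215%, 0.172% and 0.205%.

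Several of the genes lie next to each other. *Wnt6* and *Wnt10a* follow each other on chromosome 1 with their TSSs 19.6 kb apart, *Wnt10b* and *Wnt1* lie head to head on chromosome 15 with TSSs 11.7 kb apart, and *Wnt9b* and *Wnt3* on chromosome 11 with TSSs 24.3 kb apart. *Wnt3a* lies head to head with *Wnt9a* at 16.2 kb. *Wnt10b* and *Wnt1* both had low bodies, as *Wnt10a* and *Wnt5a* did, and their downstream losses were -45.6 and -46.5 percentage points in the *Dnmt3a* KO but -1.78 and -12.8 in the *Dnmt3b* KO, whereas *Wnt3* and *Wnt9b* differed in their upstream levels, 14.3% against 69.3% in WT. These values come from regions that do not overlap, except for the *Wnt6* and *Wnt10a* flanks.

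The other genes of the Wnt pathway were read in the same regions, from 6 lists with 68 genes, of which 48 had values in all 3 genotypes. Upstream, 37 of the 48 lost more than 20 percentage points in the *Dnmt3a* KO, beside 84.6% of all genes, and 1, *Rspo2*, did in the *Dnmt3b* KO, beside 3.04%. The *Rspo2* call was lost with a minimum of 10 reads, with averaged ratios and without the 1 kb at the TSS. Around the TSS 8 of 48 lost that much in the *Dnmt3a* KO and 0 in the *Dnmt3b* KO, beside 43.9% and 3.34%. The 8 were 16 with the farthest other TSS, 5 with windows of 500 bp and 15 with windows of 2 kb. No share of all genes is given for these other settings. In the bodies 44 of 48 lost more than 20 percentage points in the *Dnmt3a* KO and 0 in the *Dnmt3b* KO, beside 91.6% and 2.18%. Downstream 44 of 47 and 0 did, beside 92.9% and 2.19%. The median upstream difference of the 48 genes was -27.4 in the *Dnmt3a* KO and -8.29 in the *Dnmt3b* KO, beside -28.0 and -7.57 for the 10 ligand genes.

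For each list, the 2 genes with the largest and the 1 with the smallest upstream difference in the *Dnmt3a* KO are named, with levels in the order WT, *Dnmt3a* KO, *Dnmt3b* KO. Among the other ligands, all 4 measured genes lost more than 20 percentage points upstream, with *Wnt2b* at 52.2%, 14.3% and 36.7%, *Wnt8a* at 57.9%, 24.1% and 47.4%, and *Wnt9a* at 45.9%, 16.9% and 37.8%. Among the receptors 4 of 9 did. The co-receptor genes *Ror1* and *Lrp5* had 84.3%, 38.8% and 67.9%, and 61.5%, 19.6% and 47.5%, and *Fzd7*, a Frizzled receptor gene, had 37.7%, 24.2% and 30.8%. For secretion factors and R-spondins, which amplify the signal, 9 of 10 did. *Lgr6*, an R-spondin receptor gene, had 64.3%, 18.0% and 48.6%, *Rspo2* had 78.8%, 39.9% and 56.0%, and *Rspo3* had 46.9%, 34.2% and 56.3%, so that *Rspo3* was higher than WT in the *Dnmt3b* KO.

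Among the secreted inhibitors 8 of 10 lost more than 20 percentage points upstream in the *Dnmt3a* KO. *Sost* had 80.5%, 33.3% and 68.6%, *Dkk1* had 61.3%, 15.5% and 45.1%, and *Frzb* had 35.9%, 24.0% and 44.2%. All 7 measured cytoplasmic transducers did, with *Btrc*, which marks β-catenin for degradation, at 54.1%, 22.6% and 45.7%, *Apc*, of the destruction complex, at 66.6%, 35.8% and 69.1%, and *Dvl2*, which relays the signal from the receptor, at 30.7%, 10.4% and 14.05%. Of 8 nuclear effectors and targets 5 did. *Cdx1*, a target gene, had 65.8%, 24.6% and 56.2%, and of the β-catenin partners *Tcf7l2* had 53.2%, 22.3% and 46.6% and *Lef1* 8.28%, 2.63% and 6.74%. *Lef1* had little methylation to lose, as did the upstream region of *Wnt3* among the ligands.

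The genes whose 12 values, 4 regions in 3 genotypes, were most like the medians of the 10 Wnt genes were *Trp53rk*, *2700060E02Rik* and *Tenc1*, with mean absolute differences of 2.38, 2.83 and 2.84 percentage points among 13660 genes compared. The median gene differed by 17.2 percentage points. The 10 Wnt genes themselves differed from their own medians by 5.76 percentage points at *Wnt7b* to 22.5 at *Wnt10a*, so that the group's medians describe *Wnt7b* and *Wnt3a*, at 7.89, better than *Wnt10a*, *Wnt1*, *Wnt3* or *Wnt5a*.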

How the data were processed

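The WGBS data of the 3 genotypes of J1 ESCs were taken from 3 tables, each merged from 3 libraries. The authors aligned reads to mm9 with BSMAP, trimmed bases added in end repair, dropped clonal reads and overlapping mate segments with BSeQC, and deposited, from the mCall step of MOABS, the read coverage and the counts of methylated reads per CpG, without normalization. The deposited ratio column, a fraction from 0 to 1, was checked against these counts and not otherwise used. WT values stop on chromosome 4 with 1 incomplete row, which was dropped. The tables hold CpGs, and each listed position was checked to be a CpG of the reference.

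The 10 genes and the pathway lists were chosen with earlier results of these data known. Genes were taken from GENCODE of the same build, by the longest protein-coding isoform. CpGs needed at least 3 reads in every genotype and regions at least 5 such CpGs. Levels are shares of methylated reads with Wilson intervals, and differences carry Newcombe intervals. Replicates could not be compared, so no test across replicates was made. For single CpGs, Beta posteriors of the pooled reads were compared, with counts above 200 reads scaled down to 200. Low stretches used 5 CpGs and a limit of 10%. All 10 genes are named. Of each pathway list the 2 largest and the 1 smallest upstream difference in *Dnmt3a* KO ESCs are named, and the 3 genes nearest to the medians of the 10 genes. Sequences were read from the mm9 reference. Steps were tested on simulated data. Python 3.11.15, NumPy 2.4.6, pandas 2.3.3, SciPy 1.17.1, numba 0.67.0 and matplotlib 3.10.9 were used. Alternatives covered read minimum, weighting, region limits, call threshold, CpG rule and stretch rule, of which 2 stretch rules were chosen after seeing the data.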

Additional observations from a re-analysis of the deposited data

How the results depend on the processing

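No paired analysis was possible because the libraries of a genotype were merged before deposit, and for the same reason no replicate could be left out. TSSs of another annotation were not used, since the table at hand has another build. Of 560 differences of the 10 Wnt genes from WT under the alternatives, 551 stayed under 0 and 9 rose above it, by at most 1.53 percentage points, at the TSSs of *Wnt4*, *Wnt6*, *Wnt10a* and *Wnt10b* and upstream of *Wnt3* and *Wnt10b*. The cause of the changes below was not tested. Except where a share of all genes is printed above for the same setting, none is given for the counts below. Without such a share, a count cannot be called particular to the Wnt genes.

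For the 1 gene past 20 percentage points around the TSS in the *Dnmt3a* KO, a minimum of 10 reads gave 2, windows of 500 bp and 2 kb on each side gave 0 and 2, calls at 10 and 30 percentage points gave 4 and 0, and a call at a loss of more than 50% of WT gave 6. In the *Dnmt3b* KO, with 0 genes, calls at 10 percentage points and at more than 50% gave 1 and 2 around the TSS, and 10 percentage points gave 2 in bodies and 2 downstream. Upstream, the 7 genes in the *Dnmt3a* KO were 4 with the farthest other annotated TSS. This moved only the regions of *Wnt1*, *Wnt5a*, *Wnt7b* and *Wnt10b*, which then covered part of the body. The 1 gene in the *Dnmt3b* KO, *Wnt3a*, was 0 with averaged ratios, 0 without the 1 kb at the TSS, 0 at 30 percentage points and 0 at more than 50%, and 4 at 10 percentage points. Downstream the count of 9 genes in the *Dnmt3a* KO was 4 at more than 50%, and these included *Wnt10a*, which was not among the 9. For the other pathway genes, the 1 upstream gene in the *Dnmt3b* KO, *Rspo2*, was 0 with a minimum of 10 reads, 0 with averaged ratios and 0 without the 1 kb at the TSS, and the 8 TSS genes in the *Dnmt3a* KO were 16 with the farthest other TSS and 5 and 15 with windows of 500 bp and 2 kb.

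With Fisher's exact test, Benjamini-Hochberg adjusted, and a difference over 20 percentage points, hypomethylated CpGs in the *Dnmt3a* KO were 90 around the TSSs, 1749 in bodies, 292 upstream and 309 downstream, and in the *Dnmt3b* KO 148 in bodies, 27 upstream and 26 downstream. In the order TSS, body, upstream and downstream, hypermethylated CpGs by this test were 1, 7, 1 and 0 in the *Dnmt3a* KO and 2, 8, 2 and 0 in the *Dnmt3b* KO. In the same order, a 99% credible interval gave 8, 48, 7 and 4 hypomethylated and 0, 0, 1 and 0 hypermethylated CpGs in the *Dnmt3b* KO.

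The 8 longer low stretches in the *Dnmt3a* KO were 5 when every single CpG had to be under 10%. They were 9 with a window of 3 CpGs or a limit of 5%, and 10 with a window of 11 CpGs, a limit of 20% or averaged ratios. The 3 stretches of at least 1.5 times the WT length in the *Dnmt3a* KO were 6 with a window of 11 CpGs, 6 with a limit of 5% and 6 with a limit of 20%. In the *Dnmt3b* KO the 5 longer ones were 3 with a window of 3 CpGs and 8 with a limit of 20%, and the 3 of at least 1.5 times were 1 with a minimum of 10 reads. *Wnt3a* in *Dnmt3b* KO minus WT turned to -75 bp with a limit of 5%, and *Wnt10a* turned to -190 bp with a window of 3 CpGs, -185 bp with a limit of 5% and -101 bp with averaged ratios. Of the rules chosen after seeing the data, breaking runs at gaps over 1000 bp changed none of these counts, and summing all runs within 1 kb of the TSS gave 9 and 6 longer ones. Depth limits what can be seen at low levels, since around the TSSs 8.67 to 22.6 reads were counted per CpG.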

Other observations

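The WT values used here do not reach chromosomes 6 and 7, so that 5 further Wnt ligand genes could be compared between the KOs and not with WT. *Wnt2*, *Wnt5b*, *Wnt7a* and *Wnt16* lie on chromosome 6 and *Wnt11* lies on chromosome 7. Upstream, *Wnt7a* had 20.7% in the *Dnmt3a* KO and 56.1% in the *Dnmt3b* KO, *Wnt2* had 21.1% and 47.2%, and *Wnt16*, the most methylated of them, had 51.2% and 70.7%. *Wnt5b* had 27.2% and 44.3% and *Wnt11* had 23.6% and 38.7%.

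Around the TSS the same genes ranged from 2.28% at *Wnt11* to 5.68% at *Wnt16* in the *Dnmt3a* KO and from 3.61% at *Wnt11* to 18.2% at *Wnt2* in the *Dnmt3b* KO. The 4 other ligand genes measured in WT included *Wnt8b*, whose TSS region was methylated at 92.5% in WT, 55.7% in the *Dnmt3a* KO and 91.7% in the *Dnmt3b* KO. This was the most methylated TSS region in WT among the 14 Wnt ligand genes measured there, while that of *Wnt9a*, next to *Wnt3a*, had 5.36%, 0.597% and 3.78%.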
